A study of Mus musculus with 24 samples.

Results

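UTX sites found in the Kmt2d wild-type (WT) melanoma line alone, and lacking KMT2D there, made up 2635 of the 9712 UTX peaks of that line, a share of 27.1%. They were chosen by measured values from 3 peak lists: each is a WT UTX peak that overlaps, by as little as 1 bp, neither a UTX peak of the Kmt2d mutant line nor a KMT2D peak of the WT line. UTX and KMT2D values at these sites therefore describe the choice and support nothing. The study mapped chromatin proteins and the histone mark H3K4me3 by CUT&RUN, an assay in which an antibody directs a nuclease to its target and the DNA cut loose is sequenced. Its mouse melanoma lines were Kmt2d mutant 493 (12 peak lists) and Kmt2d WT 971 (10 peak lists), both cultured melanoma cells in DMEM/F12 medium with serum and antibiotics. The kind of Kmt2d mutation, the drivers of the tumours and the origin of the lines are not given in the sources used here. There was 1 library per line and target, so genotype and line cannot be told apart, no test between lines was possible, and every interval below covers counting error over peaks only.

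UTX, encoded by Kdm6a, removes methyl groups from lysine 27 of histone H3 and is a subunit of the COMPASS-like complexes built around KMT2C or KMT2D, methyltransferases of lysine 4 of histone H3 that work mainly at enhancers. ARID1A marks the BAF form of the SWI/SNF nucleosome remodeller, SMARCC1 is a core SWI/SNF subunit, and Menin belongs to complexes of KMT2A or KMT2B, which sit mainly at promoters, where H3K4me3 is deposited. TFAP2A, TFAP2B and SOX10 are transcription factors of the neural crest and of pigment cells.

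Of 24 promoter windows that lay wholly inside such a site, the 5 with the highest UTX fold enrichment are shown, because they let the letters under these UTX peaks be read. Each window runs from 250 bases before to 50 bases after the gene start, in the direction of transcription, from RefSeq on GRCm38.p6, the assembly of mm10. They belong to Ddx42 (chr11:106216676-106216975, plus strand) and Ddx39b (chr17:35241496-35241795, plus strand), which encode DEAD-box RNA helicases, Zfp260 (chr7:30094826-30095125, plus strand), a zinc finger gene, Tpd52l2 (chr2:181496892-181497191, plus strand), of the tumour protein D52 family, and Cbx8 (chr11:119040864-119041163, minus strand), a chromobox subunit of Polycomb repressive complex 1. Capitals mark matches, on either strand, to the motifs named after the sequences.
Ddx42: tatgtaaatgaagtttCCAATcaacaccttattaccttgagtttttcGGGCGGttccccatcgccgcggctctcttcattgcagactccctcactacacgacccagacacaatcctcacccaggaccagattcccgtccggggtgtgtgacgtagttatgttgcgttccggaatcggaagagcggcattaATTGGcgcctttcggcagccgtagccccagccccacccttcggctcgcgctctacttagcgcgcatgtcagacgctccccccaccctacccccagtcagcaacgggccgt
Zfp260: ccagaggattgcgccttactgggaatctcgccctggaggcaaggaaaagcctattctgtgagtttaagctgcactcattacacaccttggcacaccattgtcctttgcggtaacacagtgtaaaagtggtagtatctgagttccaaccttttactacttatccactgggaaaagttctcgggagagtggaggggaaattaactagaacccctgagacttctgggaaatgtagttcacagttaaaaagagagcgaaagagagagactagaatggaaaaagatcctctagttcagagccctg
Ddx39b: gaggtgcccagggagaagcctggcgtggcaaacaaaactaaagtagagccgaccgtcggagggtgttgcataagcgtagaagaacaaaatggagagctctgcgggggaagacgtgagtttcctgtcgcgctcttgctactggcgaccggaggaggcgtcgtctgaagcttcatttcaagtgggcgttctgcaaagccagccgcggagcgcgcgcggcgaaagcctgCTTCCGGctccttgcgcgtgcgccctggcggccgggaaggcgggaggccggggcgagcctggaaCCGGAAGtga
Tpd52l2: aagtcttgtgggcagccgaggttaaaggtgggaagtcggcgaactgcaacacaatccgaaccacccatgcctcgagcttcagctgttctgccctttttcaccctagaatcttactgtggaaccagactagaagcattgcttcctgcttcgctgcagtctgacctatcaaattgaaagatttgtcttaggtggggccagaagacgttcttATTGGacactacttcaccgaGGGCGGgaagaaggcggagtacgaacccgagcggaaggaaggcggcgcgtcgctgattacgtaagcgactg
Cbx8: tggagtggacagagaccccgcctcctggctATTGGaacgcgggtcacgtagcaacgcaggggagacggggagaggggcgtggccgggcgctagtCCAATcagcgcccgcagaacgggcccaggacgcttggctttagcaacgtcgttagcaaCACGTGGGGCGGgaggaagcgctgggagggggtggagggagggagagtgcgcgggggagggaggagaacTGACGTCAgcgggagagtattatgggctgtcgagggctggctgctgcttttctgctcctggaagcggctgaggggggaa

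The capitals are CCAAT boxes (CCAAT or its complement ATTGG), GC boxes (GGGCGG), ETS cores (CCGGAAG), an E-box (CACGTG) and a cyclic AMP response element (TGACGTCA). In the Cbx8 window the E-box and the GC box abut, and the Zfp260 window held none of the motifs. The UTX fold enrichment of these 5 sites was 9.99 at Ddx42, 9.99 at Zfp260, 9.72 at Ddx39b, 9.41 at Tpd52l2 and 9.23 at Cbx8. All 5 carried H3K4me3 peaks in both lines and a TFAP2A peak in the WT line. A mutant ARID1A peak lay at Tpd52l2 and Cbx8 but not at the other 3.

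Across the 320 promoter windows that held such a site, 63.8% (204 windows) contained a GC box, against 54.5% of the 165 windows under UTX peaks shared by both lines without KMT2D and 35.6% of all 32817 windows. CCAAT boxes were in 44.7% of windows under the sites, 57.6% of windows under shared peaks without KMT2D and 37.4% of all windows. ETS cores were in 19.4%, 19.4% and 8.86% of these sets. The AP-1 site TGANTCA was in 9.69%, 9.70% and 7.81%, and the TFAP2 site GCCNNNGGC in 24.4%, 23.6% and 16.6%. The TATA box TATAAA was in 6.25%, 5.45% and 13.6%. The E-box was in 8.75%, 9.09% and 7.15%, the cyclic AMP response element in 2.19%, 4.24% and 1.79%, the SOX site ACAAAG in 13.4%, 14.5% and 18.7%, and the TEAD site GGAATG in 13.4%, 13.9% and 14.7%. The 541 windows under WT-only peaks with KMT2D held more GC boxes (78.6%), CCAAT boxes (50.6%) and TFAP2 sites (30.5%) than those under the sites, and fewer ETS cores (16.3%) and AP-1 sites (3.88%). Windows under the sites had a median of 59.8% G and C and 20.5 CpG pairs, against 65.3% and 26 under WT-only peaks with KMT2D, 58.0% and 19 under shared peaks without KMT2D and 52.7% and 7 over all windows. GC boxes were in 75.8%, CCAAT boxes in 59.4% and TFAP2 sites in 25.8% of the 1294 windows under shared peaks with KMT2D. ETS cores were in 14.2% and AP-1 sites in 6.88% of those windows, whose medians were 62.0% G and C and 22 CpG pairs. Base composition was not matched between these sets, and a match of letters is a description, not a bound site.

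The sites were mostly far from the ends of genes, and 1433 of them (54.4%) lay inside a gene, against 56.0% of all WT UTX peaks. Of the 2635, 1959 (74.3%, 95% Wilson interval 72.6% to 76.0%) were farther than 5 kb from either end of any protein-coding gene, called distal here, against 66.3% of all WT UTX peaks. At gene ends, within 1 kb, lay 353 sites (13.4%, 12.1% to 14.8%), against 21.4% of all WT UTX peaks. The gene-end share was 26.9% among WT-only UTX peaks that had KMT2D, so the sites were 13.5 points lower (Newcombe interval -15.9 to -11.1), and 9.81% among shared peaks without KMT2D, so they were 3.59 points higher (1.54 to 5.55). Distal sites divided into 1006 inside a gene and 953 between genes, and the median distance to a gene end was 20179.5 bp. Within 1 kb of an annotated gene start, for genes with a promoter window, lay 298 sites (11.3%), against 18.8% of all WT UTX peaks, 23.4% of WT-only peaks with KMT2D and 8.51% of shared peaks without KMT2D.

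**Figure D1:**
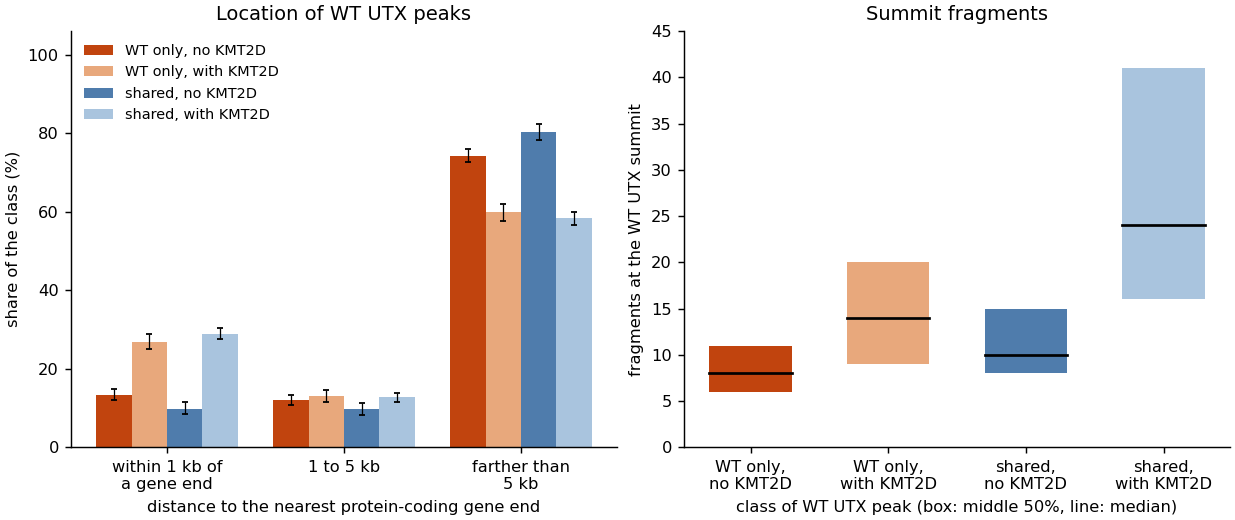
Left, share (%) of each class of WT UTX peak by distance to the nearest protein-coding gene end, with 95% Wilson intervals; right, fragments at the UTX summit, with boxes for the middle 50% of peaks and lines for medians. The WT-only sites without KMT2D (darkest red) were distal in 74.3% of cases and had a median of 8 summit fragments.

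They were also weak peaks, as a description of how they were chosen. The authors' UTX fold enrichment had a median of 6.20 and ran up to 27.3. The median was 10.1 for WT-only peaks with KMT2D, 7.71 for shared peaks without KMT2D and 17.5 for shared peaks with KMT2D. The summit held a median of 8 fragments, and 844 sites (32.0%) held 4 to 6. A −log10 q of at least 5 was reached by 1829 sites (69.4%). The mutant UTX library was 1.34 times deeper than the WT one.

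The edge of the rule was thinly filled. A mutant UTX peak lay within 50 bp of 10 sites and a KMT2D peak within 50 bp of 4, while 20 of the 5178 WT UTX peaks set aside for a mutant UTX peak, and 8 of the 5609 set aside for KMT2D, overlapped it by under 50 bp. The nearest mutant UTX peak was a median of 45844 bp away and the nearest KMT2D peak 59893 bp. A mutant UTX peak lay within 10 kb of 572 sites (21.7%), and a KMT2D peak within 10 kb of 521 (19.8%).

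The lines were compared with their labels through H3K4me3 at gene ends. Of 22 pigment cell genes, 10 carried it in the mutant line and 8 in the WT line, among them Mitf, Pax3, Pmel, Mc1r and Erbb3 in both. Tyr, Tyrp1, Dct and Mlana, defining genes of differentiated melanocytes, carried it in neither line, and Sox10 carried it in the mutant line alone. Of 10 fibroblast markers, 5 and 4 carried it in the mutant and WT lines, of 8 keratinocyte markers 1 and 1, of 8 blood cell markers 1 and 0, and of 6 endothelial markers 2 and 2, against 11782 and 10787 of all 21900 protein-coding genes.

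In the mutant line, which lacked UTX peaks at all of these sites by choice, most sites were still covered by another target. ARID1A was called at 1544 of the 2635 sites, 58.6% (56.7% to 60.5%), against 80.3% of all WT UTX peaks. This was 34.1 points lower (-36.4 to -31.8) than the 92.7% of shared peaks without KMT2D, and 10.4 points lower (-13.2 to -7.57) than the 69.0% of WT-only peaks with KMT2D. The mutant ARID1A list was not used to choose the sites, but it comes from the same cells as the mutant UTX list that was. Reweighting the shared peaks without KMT2D to the sites' mix of UTX fold enrichment and gene-end class left the difference at -32.7 points. Below, reweighting is of this kind, and stricter peaks are those with a −log10 q of at least 5 in every list.

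TFAP2A in the mutant line was called at 25.6% of the sites, against 52.0% of all WT UTX peaks, 48.0% of WT-only peaks with KMT2D and 47.1% of shared peaks without KMT2D. TFAP2B, mapped in the mutant line only, was at 11.2% of the sites and 33.1% of all WT UTX peaks. SOX10 was likewise mapped in the mutant line only. The longer of its lists, labelled U, overlapped 135 sites (5.12%), against 24.2% of all WT UTX peaks. Against shared peaks without KMT2D, of which 35.8% had SOX10, the sites were 30.7 points lower (-33.3 to -28.1), while against WT-only peaks with KMT2D, at 5.69%, the difference was -0.56 points (-1.94 to 0.75), an interval that holds 0, and 0.86 points after reweighting. The SOX10 share thus differed between UTX classes, and by less than counting error between KMT2D classes of WT-only peaks.

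Mutant H3K4me3 covered 15.6% of the sites, against 27.2% of all WT UTX peaks. That was within counting error of shared peaks without KMT2D (14.8%, difference 0.78 points, -1.55 to 3.02), with the sign turned, to -2.34 points, after reweighting. It was 17.1 points below WT-only peaks with KMT2D (-19.6 to -14.6), of which 32.6% had the mark, and -11.2 points from them after reweighting. Mutant Menin covered 14.2% of the sites and 28.2% of all WT UTX peaks. Mutant SMARCC1 covered 5.65% of the sites and 13.8% of all WT UTX peaks, and 3.33% of the sites with stricter peaks. The mutant SMARCC1 list held 2910 peaks called at 0.405 M fragments, where the WT one held 11507 called at 1.03 M. Depth and line cannot be told apart here, and the part of depth in the low mutant SMARCC1 shares was not tested.

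**Figure D2:**
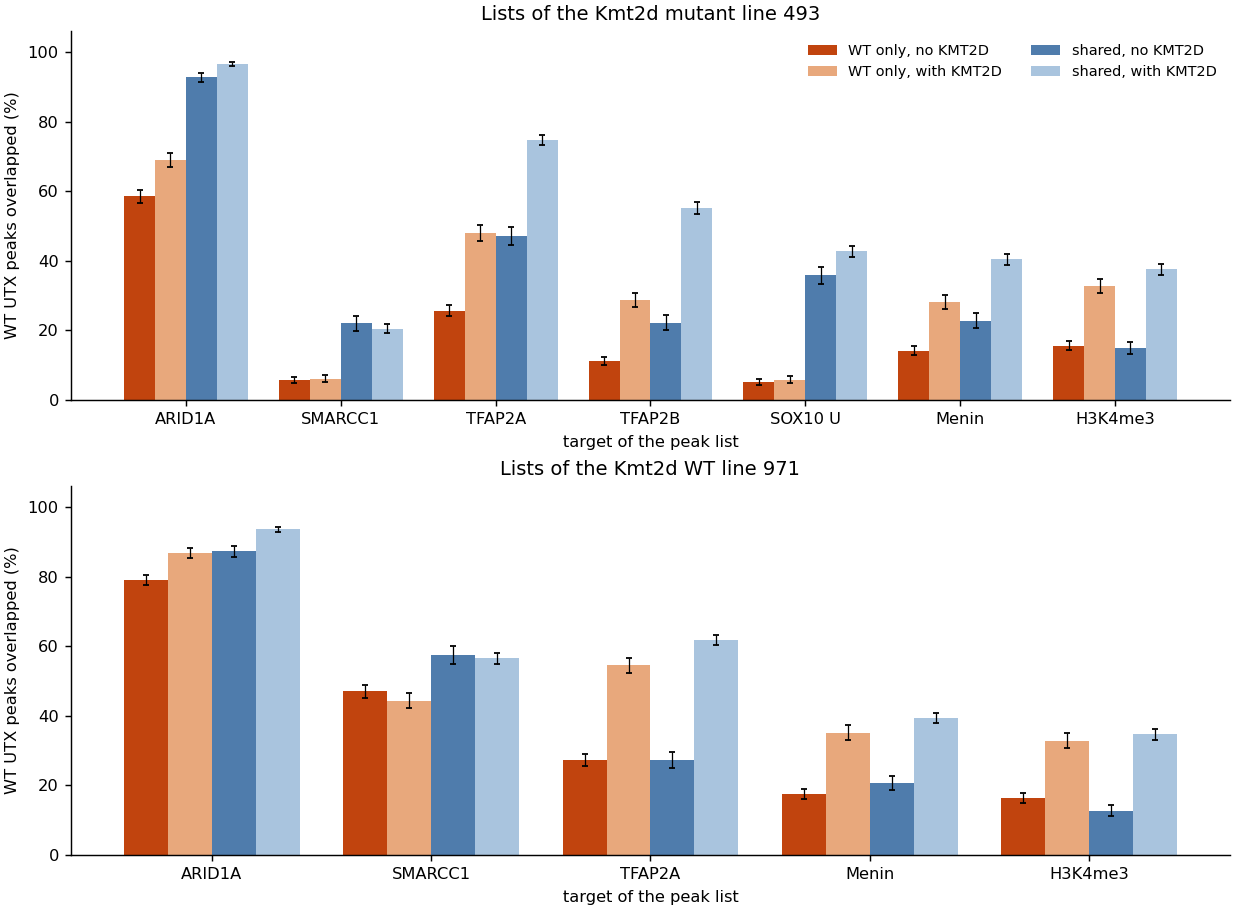
Share (%) of WT UTX peaks in each of 4 classes that overlapped a peak of each target, in the mutant line (top) and the WT line (bottom), with 95% Wilson intervals. In the mutant line the WT-only sites without KMT2D had ARID1A at 58.6% and SOX10 at 5.12%, against 92.7% and 35.8% for shared peaks without KMT2D.

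No peak of any target in the mutant line overlapped 852 of the sites, 32.3% (30.6% to 34.1%), against 12.7% of all WT UTX peaks and 377 (19.9%) of WT-only peaks with KMT2D. A mutant UTX peak is itself a mutant peak, so the shared classes could not enter this count. Of the sites, 285 (10.8%, 9.69% to 12.1%) were farther than 20 kb from any mutant peak, against 113 (5.95%, 4.97% to 7.11%) of WT-only peaks with KMT2D. Peaks of none of the other 19 lists, in either line, overlapped 220 sites (8.35%), against 2.77% of all WT UTX peaks, 1.63% of WT-only peaks with KMT2D and 0.89% of shared peaks without KMT2D.

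In the WT line itself most sites carried ARID1A, though a smaller share of them than of other WT UTX peaks. It was at 2084 sites, 79.1% (77.5% to 80.6%), against 87.4% of all WT UTX peaks. The difference was -7.80 points from WT-only peaks with KMT2D (-9.95 to -5.60, and -4.94 with stricter peaks) and -8.24 points from shared peaks without KMT2D (-10.5 to -5.89, and -5.32 after reweighting). SMARCC1 was at 47.0% of the sites, against 51.7% of all WT UTX peaks, a difference of -10.4 points from shared peaks without KMT2D (-13.6 to -7.26, and -6.59 after reweighting). Its difference of 2.70 points from WT-only peaks with KMT2D had an interval that holds 0 (-0.24 to 5.62), but this depended on the setting. It was 4.86 points with stricter peaks (1.94 to 7.76) and 5.44 after reweighting. With an overlap of at least 50% of the shorter peak it was 1.43 (-1.48 to 4.33). At distal places SMARCC1 was at 54.1% of the sites and 59.8% of WT-only peaks with KMT2D, the other direction. TFAP2A was at 27.2%, against 45.7% of all WT UTX peaks. That share was 0.14 points (-2.73 to 2.95) from the 27.1% of shared peaks without KMT2D and 27.2 points (-30.0 to -24.4) below the 54.4% of WT-only peaks with KMT2D. H3K4me3 was at 16.4% of the sites, against 26.0% of all WT UTX peaks, and Menin at 17.5%, against 29.7%. The WT TFAP2A share thus differed between KMT2D classes, and by less than counting error between UTX classes without KMT2D.

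Combinations of targets showed the same picture. In the mutant line 859 sites had none of the 7 targets ARID1A, SMARCC1, TFAP2A, TFAP2B, SOX10 U, H3K4me3 and Menin (32.6%, against 2.52% of shared peaks without KMT2D), and 781 had ARID1A alone of these (29.6%, against 23.6%). In the WT line ARID1A with SMARCC1 and none of TFAP2A, H3K4me3 and Menin was the commonest set, at 810 sites (30.7%, against 35.6% of shared peaks without KMT2D). ARID1A alone followed at 457 sites (17.3%, against 16.0% of shared peaks without KMT2D). None of these 5 targets was at 309 sites (11.7%, against 5.65%).

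WT peaks of ARID1A, H3K4me3, Menin and TFAP2A at the sites were mostly matched in the mutant line, more often at gene ends than at distal places. SMARCC1 peaks mostly were not, with 12.2% kept at gene-end and 11.0% at distal sites. Of the 204 gene-end sites with WT ARID1A, 78.4% (72.3% to 83.5%) had mutant ARID1A too, and of the 1641 distal ones 66.0% (63.7% to 68.2%). For shared peaks without KMT2D the same shares were 84.9% and 97.3%, and for WT-only peaks with KMT2D 83.3% and 68.7%. At distal places WT-only sites with and without KMT2D were thus close to each other and apart from shared peaks.

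H3K4me3 behaved otherwise. Of the 253 gene-end sites with the mark in the WT line, 244 (96.4%, 93.4% to 98.1%) carried it in the mutant line, close to the 97.1% of shared peaks without KMT2D and the 96.8% of WT-only peaks with KMT2D. Among the 107 distal sites with the mark, 56 (52.3%, 43.0% to 61.6%) kept it, against 64.2% (55.8% to 71.8%) of distal WT-only peaks with KMT2D and 67.8% (55.1% to 78.3%) of distal shared peaks without KMT2D.

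Menin was kept at 86.4% of gene-end and 37.2% of distal sites that had it in the WT line, and TFAP2A at 89.1% and 61.1%. At distal places WT-only peaks with KMT2D kept Menin at 40.4% and TFAP2A at 61.8%, close to the sites, while shared peaks without KMT2D kept them at 58.9% and 92.1%. SMARCC1 was kept at 10.8% of the 1238 sites that had it. The share was 12.1% for such WT-only peaks with KMT2D and 33.9% for such shared peaks without KMT2D. Mutant ARID1A, H3K4me3, Menin and TFAP2A were called at 2.16 to 2.21 M fragments, against 1.18 to 1.19 M in the WT line. Mutant SMARCC1 was called at 0.405 M, against 1.03 M. The part of depth in the kept shares was not tested. Where a mutant ARID1A peak did overlap a site, its median fold enrichment was 10.3, against 16.4 at shared peaks without KMT2D and 9.68 over the whole mutant ARID1A list. WT ARID1A peaks at the sites had a median of 11.0, against 12.6 at shared peaks without KMT2D and 9.13 over the whole list.

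**Figure D3:**
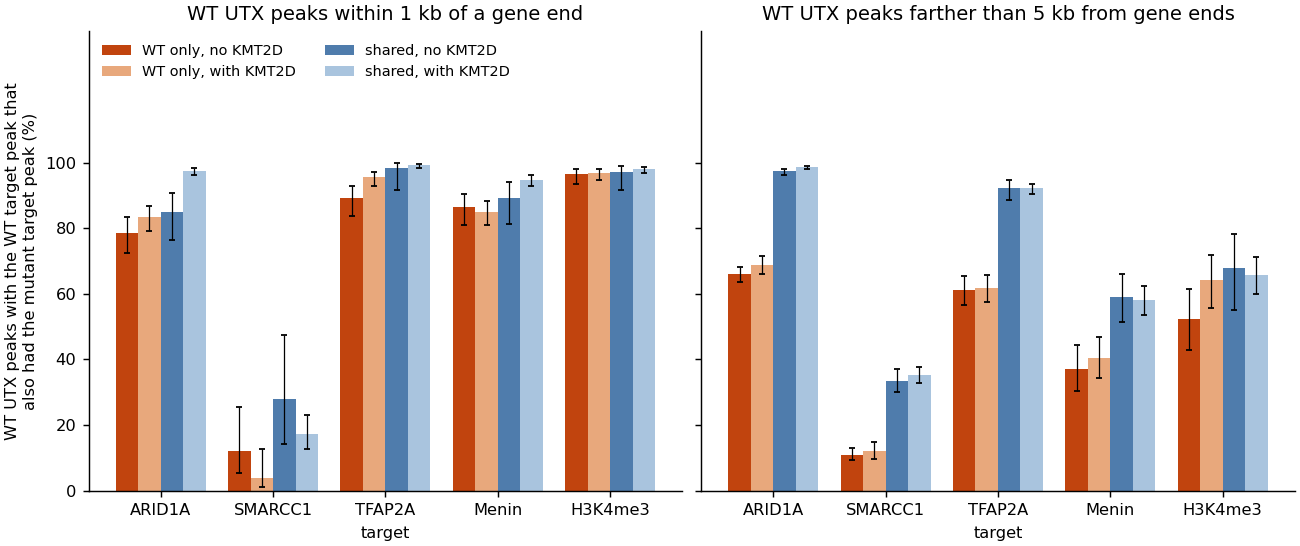
Of WT UTX peaks that also had a WT peak of the named target, the share (%) that had a mutant peak of that target, near gene ends (left) and at distal places (right), with 95% Wilson intervals. WT-only sites without KMT2D kept H3K4me3 at 96.4% of gene ends, and kept ARID1A at 66.0% of distal places, where shared peaks without KMT2D kept it at 97.3%.

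Gene-end and distal sites differed in what sat on them, and so did gene-end and distal peaks of the other classes. At the 353 gene-end sites the mutant line had H3K4me3 at 76.2%, ARID1A at 62.0%, Menin at 60.3%, TFAP2A at 60.1% and TFAP2B at 36.3%. The WT line had H3K4me3 at 71.7%, ARID1A at 57.8%, Menin at 56.4%, TFAP2A at 51.8% and SMARCC1 at 11.6%. Gene-end shared peaks without KMT2D had these mutant targets at 77.1%, 74.3%, 69.4%, 70.8% and 43.1%. They had the WT ones at 70.8%, 64.6%, 64.6%, 43.8% and 17.4%. Gene-end WT-only peaks with KMT2D had the mutant targets at 84.3%, 73.4%, 69.9%, 80.4% and 60.9%, and the WT ones at 80.6%, 72.6%, 69.5%, 73.6% and 10.4%. At the 1959 distal sites the mutant line had ARID1A at 58.2%, TFAP2A at 18.8% and H3K4me3 at 4.08%. Distal shared peaks without KMT2D had them at 94.8%, 43.9% and 6.36%, and distal WT-only peaks with KMT2D at 66.4%, 33.0% and 9.93%. The WT line had ARID1A at 83.8%, SMARCC1 at 54.1%, TFAP2A at 23.0% and H3K4me3 at 5.46% of distal sites. Distal shared peaks without KMT2D had these WT targets at 90.6%, 63.8%, 24.8% and 5.004%. Distal WT-only peaks with KMT2D had them at 93.8%, 59.8%, 45.8% and 11.8%. The distal sites were thus below both classes in WT ARID1A and WT SMARCC1.

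Stronger sites carried ARID1A and, in the WT line, SMARCC1 more often. In the low, middle and high groups of the sites by UTX fold enrichment (878, 878 and 879 sites) WT ARID1A was at 71.0%, 79.0% and 87.3%, and WT SMARCC1 at 38.5%, 45.9% and 56.5%. Mutant ARID1A was at 56.2%, 58.1% and 61.5%. H3K4me3 ran the other way in both lines, at 21.8%, 14.4% and 10.6% in the mutant line and 21.8%, 15.4% and 11.9% in the WT line. The gap between WT and mutant ARID1A was therefore widest among the strongest sites. These groups were cut on the UTX fold of the list that chose the sites, and ties at 5.44 and 7.71 were split between groups. Other classes were not divided this way, so whether the trend is particular to the sites was not tested.

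**Figure D4:**
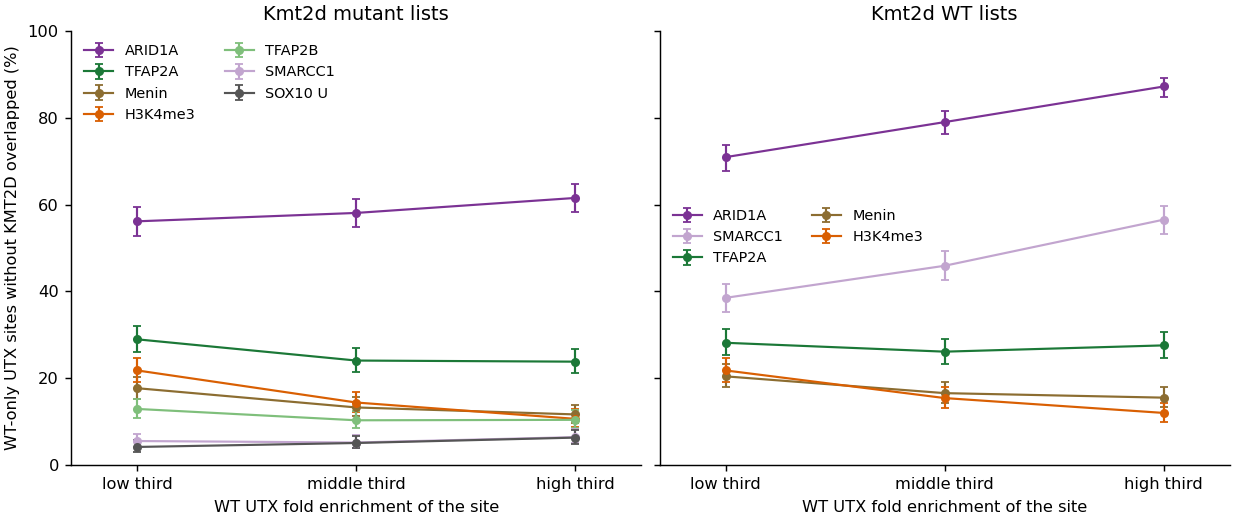
Share (%) of WT-only UTX sites without KMT2D that overlapped each target, by low, middle and high UTX fold enrichment, in mutant lists (left) and WT lists (right), with 95% Wilson intervals. WT ARID1A was at 71.0%, 79.0% and 87.3% of sites, and mutant ARID1A at 56.2%, 58.1% and 61.5%.

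Genes with such a site at an end numbered 406, which is 1.85% of 21900 protein-coding genes and 16.7% of the 2433 genes with any WT UTX peak at an end. For 379 of the 406 it was the only WT UTX peak there. The highest UTX fold enrichment at a gene end was 19.1, with 24 fragments, at Chac2 (chr11:30986366-30986828), which encodes a glutathione-degrading cyclotransferase. H3K4me3 was enriched 19.4-fold there in the mutant line and 15.7-fold in the WT line, Menin 6.77-fold in the mutant line and 9.75-fold in the WT line, and ARID1A was called only in the WT line (4.30-fold). The promoter mark was thus present in both lines at the strongest gene-end site. Folds are those of the authors within each list, and folds of different libraries are not on 1 scale.

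Pola2, which encodes the accessory subunit of DNA polymerase alpha, followed with a fold of 18.9 (chr19:5940324-5940581). It had ARID1A (19.1-fold), TFAP2A (16.7-fold), TFAP2B, SOX10 and SMARCC1 peaks in the mutant line and ARID1A (19.9-fold) and TFAP2A (13.0-fold) peaks in the WT line. The mutant line thus had peaks of 5 targets there and the WT line of 2 besides UTX, but TFAP2B and SOX10 were not mapped in the WT line. Nnmt, nicotinamide N-methyltransferase, had a UTX fold of 16.6 and, besides it, ARID1A in both lines (7.68-fold in mutant, 8.17-fold in WT).

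Grn, the gene of progranulin, had a UTX fold of 14.4 with TFAP2A at 34.78-fold in the mutant line and 19.996-fold in the WT line. Pacsin2, encoding a membrane-bending protein, had a UTX fold of 13.0 and 6 mutant targets, among them H3K4me3 at 45.1-fold in the mutant line and 24.5-fold in the WT line. Usp11, a deubiquitinase gene, also had 13.0, and 5 mutant targets. These 3 promoters carried the same 4 targets, ARID1A, H3K4me3, Menin and TFAP2A, in both lines.

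Tspyl2, of the nucleosome assembly protein family, had a UTX fold of 14.4 with ARID1A and Menin in both lines. Hebp1, encoding a haem-binding protein, had 14.1 and kept only ARID1A in the mutant line (11.5-fold, against 19.1-fold in the WT line). A site near an end of both Smcr8, an autophagy regulator, and Top3a, a topoisomerase, had 13.3. That site had H3K4me3 and Menin in both lines and no ARID1A in either. Zfp652, a zinc finger gene, had 13.7 and ARID1A in the WT line alone (9.37-fold), and it was the only 1 of the 10 strongest gene-end sites with no peak of any target in the mutant line.

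Distal sites reached higher folds. The highest of all was 27.3, with 37 fragments, inside Bcl9, a coactivator gene of Wnt and beta-catenin signalling, 19211 bp from its end (chr3:97222869-97223242). The mutant line had no peak of any target there, and the WT line had ARID1A (7.61-fold), SMARCC1 (8.43-fold) and Menin (5.49-fold). Bcl9 was 1 of 3 such cases among the 10 strongest distal sites, with Fam110a and Myoz2. The other 7 had ARID1A in the mutant line and no other mutant target, and all 10 had ARID1A in the WT line.

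Prickle2, a planar cell polarity gene, held a site of 23.6-fold within its body (chr6:92574957-92575368), where ARID1A was 7.77-fold in the mutant line and 32.7-fold in the WT line. A site of 19.1-fold whose nearest gene, 320620 bp away, was Cd180, of the Toll-like receptor family, had ARID1A at 4.25-fold in the mutant line and 31.5-fold in the WT line. A site of 20.8-fold 34084 bp from Greb1l had ARID1A at 13.6-fold in the mutant line and 35.0-fold in the WT line. A site of 17.96-fold whose nearest gene, 144219 bp away, was Abhd5, an activator of lipolysis, had it at 7.77-fold in the mutant line and 20.03-fold in the WT line. In these 4 the mutant ARID1A peak had the lower fold, each on the scale of its own list.

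The other distal sites with ARID1A in both lines showed no such gap. A site of 20.6-fold 6160 bp from Amd1, which encodes a polyamine synthesis enzyme, had ARID1A at 29.7-fold in the mutant line and 25.3-fold in the WT line. A site of 18.6-fold 18855 bp from Dnajb12, an endoplasmic reticulum chaperone gene, had 22.1-fold in the mutant line and 24.0-fold in the WT line. A site of 18.4-fold 58699 bp from Plpp3, a lipid phosphatase gene, had 14.8-fold in the mutant line and 11.6-fold in the WT line. With 1 library per line none of these ARID1A differences has a replicate check. Some of the strongest sites had a mutant UTX peak close by. It was 2401 bp away at Prickle2, 1880 bp at Amd1 and 2429 bp at Dnajb12. At gene ends it was 2056 bp away at Nnmt, 3403 bp at Hebp1 and 4530 bp at Pola2. At the rest of the strongest gene-end and distal sites it was at least 12639 bp away.

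**Figure D5:**
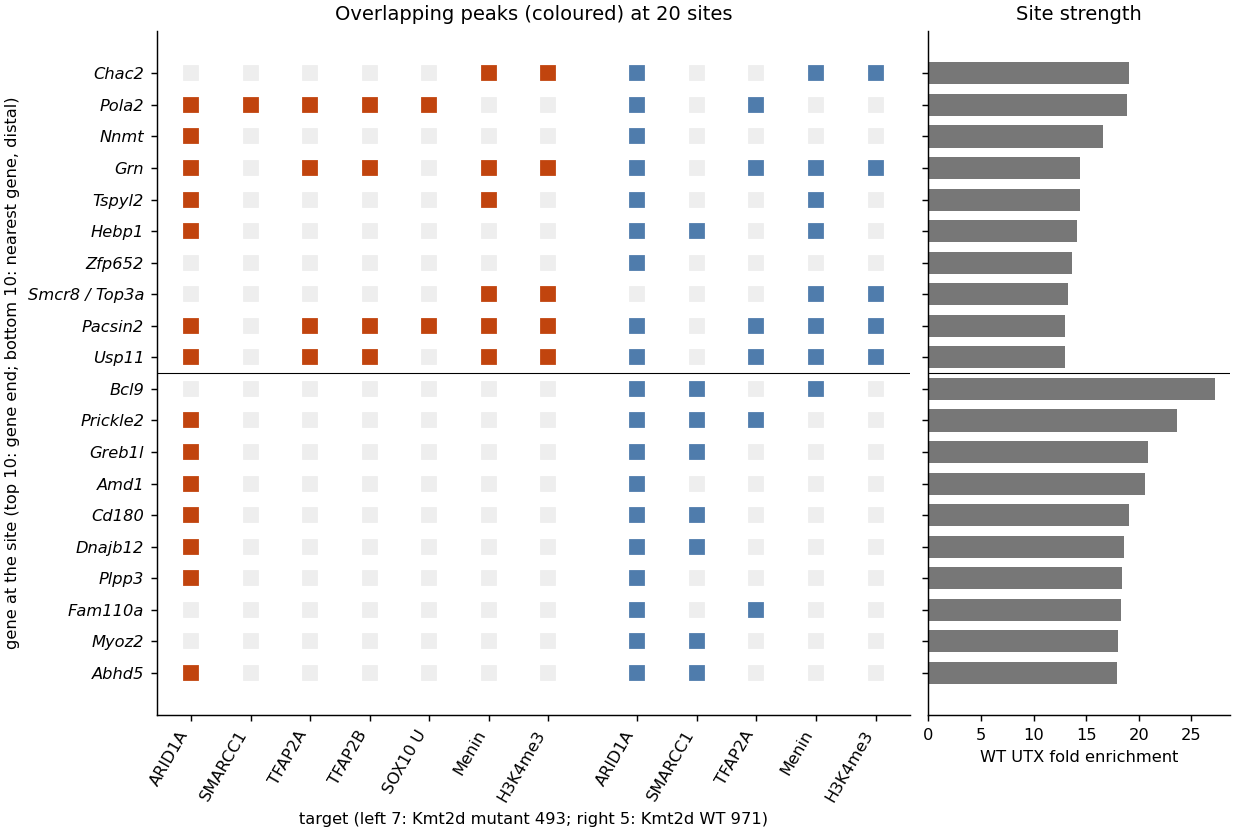
The 10 strongest gene-end sites (top) and 10 strongest distal sites (bottom), with coloured squares for an overlapping peak in the mutant line (red, left) or the WT line (blue, right) and bars for WT UTX fold enrichment. At distal sites ARID1A was the only mutant target, at 7 of 10, while gene-end sites such as Pacsin2 had up to 6 mutant targets. TFAP2B and SOX10 were mapped in the mutant line only.

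Sites with no mutant peak were traced further down the list. At gene ends the strongest after Zfp652 was at Trpm3, a cation channel gene (10.7-fold, with WT ARID1A at 18.5-fold and WT SMARCC1 at 13.4-fold). A site beside Brca2, the homologous recombination gene, and N4bp2l1 had 9.34, one at the zinc finger gene Zfp747 had 9.23 and one at C1qtnf6 had 8.47. At distal places, after Bcl9, Fam110a (18.3) and Myoz2 (17.98), came sites inside Sppl3, an intramembrane protease gene (17.6, with WT ARID1A at 24.1-fold and WT SMARCC1 at 22.4-fold), and Spata16, a spermatogenesis gene (16.8). Each of these places had ARID1A in the WT line, and none had H3K4me3 there. A separate site at the same Zfp747 end, also of 9.23-fold, had ARID1A in both lines and H3K4me3 in the WT line.

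Most sites stood alone: 1927 (73.1%) had no other such site within 50 kb, and 180 (6.83%) lay in 53 runs of at least 3. The run at Fosb, a gene of the AP-1 transcription factor family, had 5 sites in 37.9 kb of chromosome 7 (chr7:19300993-19338854). The WT line had 9 UTX and 5 KMT2D peaks in it and the mutant line 1 UTX peak. The run over Col4a1 and Col4a2, which share a start region and encode the main collagen chains of basement membranes, had 5 sites in 85.1 kb (chr8:11308661-11393733). No KMT2D peak lay in it, all 5 WT UTX peaks there were of this kind, and 3 had no mutant peak of any target, while the mutant line had 1 UTX peak elsewhere in it. Over S100a3, S100a2 and S100a4, genes of calcium-binding proteins, 4 sites lay in 19.1 kb of chromosome 3, with 2 KMT2D peaks and no mutant UTX peak between them.

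The third run of 5 sites lay within 4.35 kb of chromosome 1 (chr1:24611738-24616082), around the pseudogenes Gm10222 and Gm10925, the second of which RefSeq lists with mt-Atp6 as a synonym. Runs of 4 sites numbered 15, of which the 2 shortest were the one over the S100a genes and one on the mitochondrial sequence. UTX folds were 2.39 to 3.59 in the pseudogene run and 1.75 to 2.64 in the mitochondrial one, below the median of the sites, and mutant UTX had no peak in either stretch. Without these 9 and 1 site on unplaced sequence 2625 sites remained.

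Genes of chromatin and signalling pathways were looked up in 20 lists. Beside the counts below stand the shares over all genes. A site lay at an end of 1.85% of protein-coding genes, and of 16.7% of those with any WT UTX peak at an end. No list was tested against these shares. Among 17 COMPASS genes 3 had such a site at an end, of 7 with any WT UTX peak there: Paxip1, which encodes the PTIP subunit shared by KMT2C and KMT2D complexes (UTX 3.92-fold, with TFAP2A at 62.8-fold in mutant and 30.5-fold in WT cells), Setd1a, a promoter methyltransferase (7.49-fold), and Hcfc1, a cofactor of SETD1 and KMT2A complexes (6.45-fold). The site at Setd1a was not the only WT UTX peak at its ends, and it overlapped an end of another gene. The site at Paxip1 held 4 fragments, the fewest of any WT UTX peak. Of 25 Polycomb genes 1 had a site, Cbx8 (9.23-fold), of 2 with any WT UTX peak, and of 27 SWI/SNF genes none did, of 6 with any.

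The MAPK output list had 4 of 19 genes with a site, of 12 with any WT UTX peak at an end. Phlda1, a growth factor response gene, had UTX at 9.34-fold, H3K4me3 at 42.8-fold in mutant and 11.1-fold in WT cells, and TFAP2A at 66.8-fold in mutant and 23.7-fold in WT cells. Etv4, an ETS factor gene, had UTX at 8.28-fold and ARID1A only in mutant cells. Ier3 (5.44-fold) carried H3K4me3 and Menin in both lines. The site at Egr1, an immediate early gene, was 5.44-fold, held 6 fragments and no peak of any other list, and stood beside another WT UTX peak at the gene.

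Among 22 glycolysis genes 3 had a site at an end, of 6 with any WT UTX peak. Hk2, encoding hexokinase, had UTX at 5.84-fold and TFAP2A at 59.99-fold in mutant and 33.9-fold in WT cells. Gapdh (6.95-fold) and Pfkl (4.42-fold) carried H3K4me3 in both lines and Menin in the mutant line alone. Of 63 replication-dependent histone genes, 57 had a WT UTX peak at an end and 4 a site of this kind: H3c11, H2bc23, H2ac24 and H4c18, the last 2 through 1 shared peak of 4.75-fold.

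The other lists had 2 such genes at most. A site lay at 1 of 26 TGF-beta and BMP genes (Tgfbr1, a receptor, 3.90-fold) and 1 of 19 AP-1 genes (Fosb, 9.23-fold). The Tgfbr1 site had a −log10 q of 1.32, the lowest in the WT UTX list. Other sites lay at 1 of 20 mesenchymal state genes (Thbs1, thrombospondin, 5.29-fold) and 1 of 16 p53 pathway genes (Gadd45a, a stress response gene, 5.60-fold). In a partial list of 21 cytosolic ribosomal protein genes, 1 had a site (Rpl7, 5.44-fold). Rps29, not in that list, had a site of 9.34-fold at an end. Of fibroblast markers 2 of 10 had one, Fap (6.20-fold) and S100a4 (5.03-fold), and of blood cell markers 1 of 8, Cd68 (8.72-fold). None lay at an end of the 22 pigment cell, 23 TEAD and YAP, 25 matrix and adhesion, 19 NF-kB and cytokine, 8 keratinocyte, 6 endothelial or 12 silent tissue-restricted genes. Over all protein-coding genes the share was 1.85%, so an absence from lists this short says little about them. Of the pigment cell genes 2 had a WT UTX peak of any kind at an end.

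Within 20 kb of a gene the picture was wider, with 2502 of the 21900 genes (11.4%) having at least 1 site in or around them. The matrix and adhesion list had 11 of 25, among them Col4a2 (5 sites), Col5a1, Itgb5 (11.5-fold), Lamc1 and Itga3. Glycolysis had 11 of 22, and TGF-beta and BMP 9 of 26 (Smad7 at 10.7-fold, Tgfb2 with 2 sites). SWI/SNF had 8 of 27, among them Pbrm1 with 2 sites, of which the stronger (10.7-fold) lay at an end of Smim4. Pigment cell genes had 4 of 22, Mitf, Sox10, Mc1r and Trpm1, each with 1 site. The site counted for Sox10 overlapped an end of another gene, and sites counted here could lie at other genes. Gene length was not matched in these counts.

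Of 1003 RefSeq miRNA hairpins, 20 had a site within 5 kb, of 105 with any WT UTX peak that close (19.0%), the strongest being the distal site near Fam110a, 4804 bp from Mir1953. Among the autosomes and chromosome X, the sites made up from 22.6% of WT UTX peaks on chromosome 19 to 34.2% on X (27.2% to 41.9%), where 54 of 158 peaks were of this kind. On the mitochondrial sequence 4 of 6 were (66.7%, 30.0% to 90.3%). The interval held the share over the whole list on every chromosome but 6: it lay below on chromosomes 3, 10 and 19 and above on 14, X and the mitochondrial sequence.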

How the data were processed

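CUT&RUN peak lists of 22 libraries were used, 12 from the Kmt2d mutant line 493 and 10 from the Kmt2d WT line 971, and the 2 IgG libraries were not analysed here. Per the submitters' processing notes, the tools were FastQC, MultiQC, Bowtie2 and MACS2 and the build was mm10. Tool versions, caller settings and the control are not given in the sources used here. The deposited columns used were a score, a fold enrichment over background (a ratio), and p and q as −log10.

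Distinct WT UTX peaks were divided by overlap of at least 1 bp with mutant UTX and with WT KMT2D peaks. Gene ends were those of 21900 protein-coding genes of RefSeq GRCm38.p6, whose table gives no strand. Gene starts came from the promoter windows, which cover 17462 of these genes. Shares carry Wilson and differences Newcombe 95% intervals. Summit fragments and the depth of each call were reconstructed from deposited fold enrichment and −log10 p at summits, with a tolerance of 1%. Library depth was 1.89 M fragments for mutant UTX, 1.41 M for WT UTX and 1.54 M for WT KMT2D. No differential test was run.

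Named sites were the 10 strongest at gene ends, the 10 strongest distal ones, the 5 strongest of each with no mutant peak, the 5 runs (gaps of at most 50 kb) with most sites, ties in the number of sites going to the shorter run, and sites at gene ends of listed genes. The sites, gene lists and motifs were chosen with earlier results of these data known. Alternatives were stricter peaks, other overlap rules, a thinned mutant UTX list, removal of regions called in many libraries, 2.5 kb gene ends and reweighting. Overlap, interval and fragment steps were tested on simulated data. Scripts ran in Python 3.11.15 with SciPy 1.17.1, pandas 2.3.3, NumPy 2.4.6 and Matplotlib 3.10.9.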

Additional observations from a re-analysis of the deposited data

How the results depend on the processing

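The number of sites, 2635, ran from 2545 (peaks within 500 bp counted as overlapping) to 2845 (mutant UTX list thinned to the depth of the WT call). With −log10 q of at least 5 in every list there were 2554, of which 1829 were sites as reported and 725 were new. The gene-end share, 13.4%, was 18.8% within 2.5 kb and 11.3% within 1 kb of a gene start (chosen after seeing the data), and 12.3% to 13.7% otherwise. The difference in mutant ARID1A share kept its sign under every alternative run, from -36.0 to -31.9 points against shared peaks without KMT2D and from -12.0 to -7.74 points against WT-only peaks with KMT2D. The difference in mutant H3K4me3 share from shared peaks without KMT2D was -2.34 points after reweighting, against 0.78 as reported. From WT-only peaks with KMT2D it was -22.0 points with stricter peaks, -14.4 with an overlap of at least 50% of the shorter peak and -11.2 after reweighting, against -17.1 as reported; the cause of these shifts was not tested. Of 212 further values under alternatives, 177 stayed within the interval of the reported value, 35 moved beyond it and 0 changed the sign of a difference whose interval left out 0. Leaving out the mitochondrial, unplaced and pseudogene stretches, an alternative chosen after seeing the data, left 2625 sites. No paired analysis was possible because there was 1 library per line and target. The weakest sites were called on 4 fragments.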
